A study of Mus musculus with 6 samples.

Results

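H/ACA small nucleolar RNAs and the RNAs of Cajal bodies were examined in the duodenum, the stretch of small intestine next to the stomach, of female mice. The set held every row of the count table whose Ensembl transcript, with the version ignored, was annotated as a snoRNA or scaRNA with a symbol starting with Snora or Scarna. This gave 41 of the 1929 transcripts shorter than 300 bases. Of 1742 Ensembl identifiers 1356 matched the annotation, so further H/ACA RNAs may stand among the rest. Annotated snoRNAs with other symbols, such as Gm names, were left out, even copies close to a member. The 41 members carried 40 symbols, with 37 Snora and 4 Scarna transcripts.

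H/ACA snoRNAs fold into a pair of hairpins joined by a hinge that carries the H box, and they end in a tail with the letters ACA close to the 3′ end. Together with the proteins dyskerin, Nhp2, Nop10 and Gar1 they guide the conversion of uridine to pseudouridine in ribosomal RNA, and some are needed for cleavage of the pre-rRNA. Small Cajal body RNAs (scaRNAs) guide modification of the spliceosomal snRNAs and can be built as box C/D RNAs, as H/ACA RNAs or as both. In mammals most of these RNAs are cut out of introns of host genes that RNA polymerase II (Pol II) transcribes.

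Wild-type C57BL/6N mice were compared with mice heterozygous for C57BL/6N-Polr3b<em7(IMPC)Tcp>/Tcp, with 3 libraries of each genotype. Polr3b encodes a core subunit of RNA polymerase III (Pol III), and the allele is a small insertion predicted to shift the reading frame. The allele is carried in the germline, so it is not limited to the duodenum or to one cell type. No Polr3b transcript was found among the annotated rows, so the genotype could not be checked in these libraries. Ages are not given in the sources used here. The mice had been fasted overnight, and wild-type and heterozygous mice came from different matings. The comparison asks whether these RNAs changed when one copy of a Pol III subunit gene was mutated.

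RNA below 200 nucleotides was selected and demethylated before sequencing. The table's totals were 1719869 to 4078753 in the wild-type libraries and 3076652 to 9771623 in the heterozygous ones, of which libraries 1 and 2 were the deepest of the 6. The columns taken as heterozygous are headed with the name of another Pol III subunit. They were placed there because no other group exists, and were numbered in column order. All 4 listed miRNA hairpins of intestinal epithelium had counts, with sums of 7 to 126 per library, but Mir194-2 and Mir215 were at 0 in wild-type library 1. The 5 hairpins of epithelium in general summed to 2 to 43. Hairpins of pancreas (3 of 4 listed were found) summed to 1 to 8, and those of blood cells (2 of 4) to 1 to 33. The liver hairpin Mir122 had 1 count in heterozygous library 1 and 0 elsewhere. Of 8 listed neuronal entries (Mir124 and Mir9 hairpins and the Snord115 and Snord116 families), 0 were in the table. Smooth muscle hairpins summed to 3 to 23 in 5 libraries and to 84 in heterozygous library 2.

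The sequences below are the most abundant member (Snora21), the member with the smallest p-value (Snora81) and the most abundant scaRNA (Scarna8). They are given 5′ to 3′ as DNA letters from GENCODE vM21 on GRCm38. Capitals mark a match to the H box motif, ANANNA, in the middle of the molecule (35 to 65% of its length). Where several matched, the one nearest the middle was marked, so a marked stretch need not be the working H box. Capitals also mark an ACA within the last 10 bases, which Snora81 lacks.
Snora21 (chr11:97781639-97781775, minus strand, in Rpl23): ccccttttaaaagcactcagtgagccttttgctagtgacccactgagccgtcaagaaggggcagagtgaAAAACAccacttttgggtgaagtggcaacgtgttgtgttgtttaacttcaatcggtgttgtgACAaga
Snora81 (chr16:23110756-23110933, plus strand, in Eif4a2): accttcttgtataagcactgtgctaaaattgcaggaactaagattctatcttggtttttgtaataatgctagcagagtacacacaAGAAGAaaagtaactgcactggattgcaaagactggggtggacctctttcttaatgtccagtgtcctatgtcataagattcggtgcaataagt
Scarna8 (chr4:86586453-86586583, minus strand, in Haus6): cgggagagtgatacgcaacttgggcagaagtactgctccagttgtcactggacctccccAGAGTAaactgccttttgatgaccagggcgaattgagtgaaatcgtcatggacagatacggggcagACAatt

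The label was checked against these letters on the RNA strand. Both motifs stood together in 33 of the 41 members (80.5%), and in 32 of the 37 Snora transcripts (86.5%). The ACA stood exactly 3 bases before the end in 30 of the 37 Snora transcripts. Box C/D snoRNAs, the sister class that guides ribose methylation, held both motifs in 1 of 75 (1.33%). Other annotated transcripts of the table with 121 to 205 bases, with snoRNAs and scaRNAs of any symbol left out, held both in 10 of 145 (6.90%). Of the 4 scaRNAs, Scarna8 held both, and Scarna6, Scarna9 and Scarna17 did not. Snora81 and Snora44 had ANANNA in their middle but no ACA in the last 10 bases of the annotated transcript, and Snora65 had the ACA but no ANANNA in its middle. With or without an ACA, a middle ANANNA stood in 36 of the 41 members (87.8%). It also stood in 24 of 75 box C/D snoRNAs (32.0%) and 75 of the 145 other transcripts (51.7%), so alone it marks the class poorly. Members were 70 to 265 bases long (median 132), against a median of 79 for the box C/D RNAs. Snora73a and Snora73b (205 bases each) and Scarna6 (265 bases) were longer than the size selected.

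Host genes were read from the same annotation. Ribosomal protein genes hosted 10 members, other protein-coding genes 15 and noncoding RNA genes 11, and no host was annotated for 5. These classes follow the annotated type of the gene. Cct6a, the host of Snora15, is typed there as a processed transcript and was counted as noncoding for that reason alone. The other protein-coding hosts include Eif4a2 and Eif5 (initiation factors of translation, hosts of Snora81 and Snora28), Ipo7 (a nuclear import receptor, host of Snora23), Htr2c (a serotonin receptor, host of Snora35) and Tpt1 (host of Snora31).

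The members spanned a wide range of levels. Per kilobase of annotated length, the mean normalised count over the 6 libraries was 550 times higher in the highest member than in the lowest. The lowest was the shorter Snora43 transcript, which lies wholly within the longer one and was listed at 0 in 3 libraries. How reads were split between these transcripts was not tested. Normalised counts here are estimated counts divided by the DESeq2 size factor of each library. Snora21, in an intron of Rpl23, stood highest with 18216 normalised counts per kilobase. Snora30 (host Srcap, a chromatin remodeller) followed with 13712, Snora16a (Snhg12) with 13522, Snora7a (Rpl32) with 12115 and Snora75 (Ncl, nucleolin) with 11484. Only 4 of the 40 pairs of neighbours in this order differed by more than their pooled SD, and the step from Snora21 to Snora30 was one of them. The median level per kilobase was 6085 for members in ribosomal protein genes, 2735 for those in other protein-coding genes, 1899 for those in noncoding RNA genes and 825 for those with no annotated host. Values listed at 0 enter these levels and were unevenly spread. At least 1 library was at 0 for 2 of 10, 2 of 15, 7 of 11 and 1 of 5 members in that order.

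**Figure D1:**
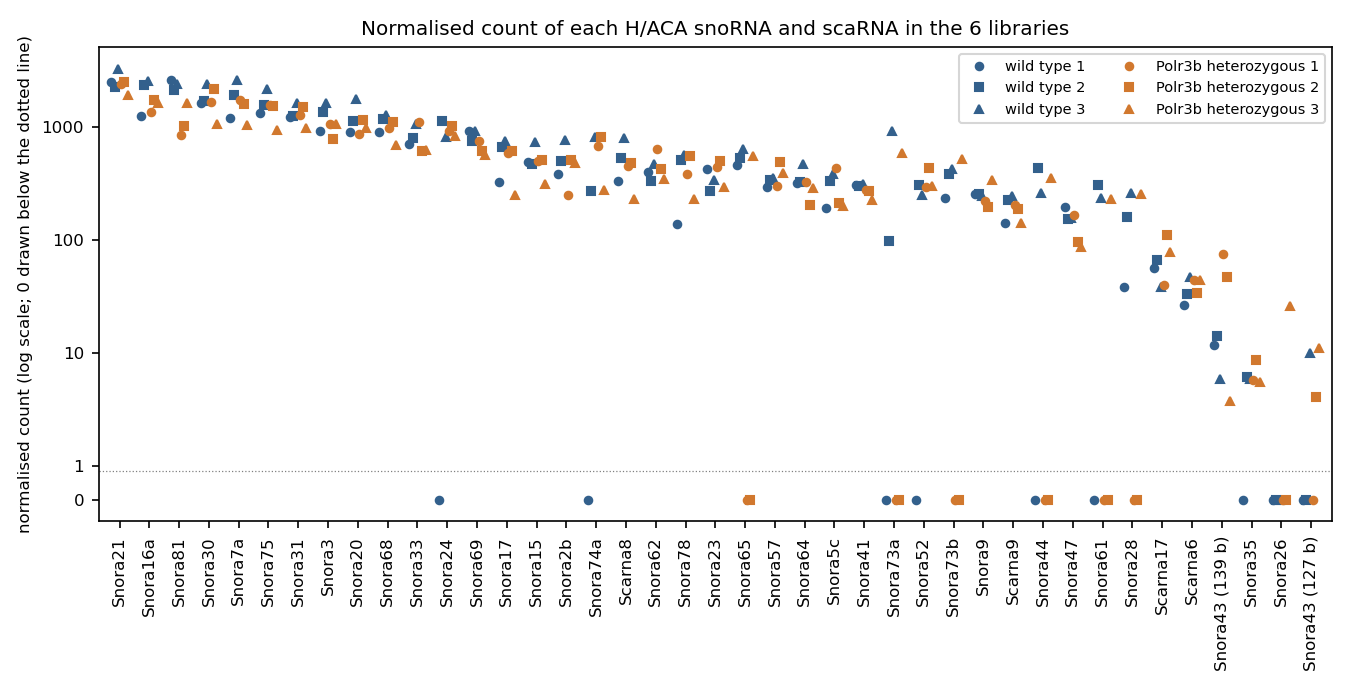
Normalised count (log scale) of the 41 transcripts in each of the 6 libraries, sorted by mean, with wild type in blue and Polr3b heterozygous in orange. Values listed at 0 are drawn below the dotted line, and most of them fall in wild-type library 1 and heterozygous libraries 1 and 2.

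The most abundant members overlapped between genotypes, apart from Snora81. Snora21 had normalised counts of 2517, 2265 and 3319 in wild-type libraries 1 to 3 and of 2422, 2527 and 1922 in heterozygous libraries 1 to 3. Its log2 fold change, heterozygous over wild type, was -0.24 ± 0.39 (SE). Snora16a had 1267, 2395 and 2597 against 1375, 1757 and 1642, with a log2 fold change of -0.39 ± 0.49. In both, wild-type library 3 gave the highest value.

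Snora30 had 1630, 1724 and 2414 against 1693, 2175 and 1061. Snora7a had 1217, 1933 and 2621 against 1755, 1594 and 1055. Snora75 had 1333, 1569 and 2179 against 1576, 1558 and 949. In these 3 members heterozygous library 3 was the lowest of the 6 and wild-type library 3 the highest, and the log2 fold changes were -0.23 ± 0.51, -0.39 ± 0.54 and -0.31 ± 0.48.

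Snora31 had 1232, 1267 and 1640 normalised counts against 1286, 1522 and 992, and Snora3 (host Rpl27a) had 932, 1358 and 1653 against 1076, 782 and 1077. Snora20 (host Tcp1, a chaperonin subunit) had 917, 1129 and 1766 against 879, 1159 and 979. The genotypes overlapped in each, with log2 fold changes between -0.43 (Snora3) and -0.12 (Snora31).

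None of the 41 members was called at a DESeq2 adjusted p under 0.1, where 17 of all 734 transcripts with an adjusted p were called (2.32%). At an unadjusted p under 0.05 there was 1 member, Snora81, against 50 of 734 transcripts (6.81%). edgeR's quasi-likelihood test called 0 of the 38 members it kept, and 0 of its 577 transcripts (0.0%), with 1 member and 19 transcripts (3.29%) at an unadjusted p under 0.05. The smallest DESeq2 adjusted p was 0.601 for Snora81 and the next was 0.827 for the longer Snora43 transcript. The other 39 members had an adjusted p of 0.9999.

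Snora81 lies within Eif4a2, where it overlaps an exon of an annotated transcript, and it had the smallest p-value of the members. Its estimated counts were 887, 2450 and 2912 in the wild-type libraries and 1771, 2234 and 892 in the heterozygous ones. Normalised, these were 2633, 2143 and 2428 against 850, 1018 and 1657, so each heterozygous library lay below each wild-type library and heterozygous library 3 lay nearest to them. The log2 fold change was -1.03 ± 0.47 (SE), with a 95% interval from -1.96 to -0.11 and an unadjusted p of 0.029. An exact two-sided permutation test on log2(normalised count + 1) gave p = 0.1, the smallest that 3 against 3 libraries allow. Its near-identical copy Gm22519 (98.9% identity) held at most 3 counts in any library.

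Other snoRNAs of the Eif4a2 host gene did not share one direction. Snord2, a box C/D snoRNA, had 383, 3469 and 4514 counts against 9067, 7886 and 1083, with a log2 fold change of 0.33 ± 0.70. Gm24616 had 682, 2996 and 5401 against 5041, 3390 and 835, with a log2 fold change of -0.73 ± 0.56. Gm24201 had 0, 106 and 178 against 1014, 1121 and 44, with a log2 fold change of 2.16 ± 1.51. The genotypes of Gm24201 were split by library, with heterozygous libraries 1 and 2 high and library 3 low. Gm26447 had 0, 41 and 40 against 0, 0 and 83, with a log2 fold change of 1.14 ± 2.96. None of these 4 transcripts was called.

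Besides Snora81, Snora69 (host Rpl39) and Snora41 (host Eef1b2) had all 3 heterozygous libraries below the lowest wild-type one. Snora69 had normalised counts of 929, 764 and 930 against 751, 622 and 565, and Snora41 had 306, 304 and 315 against 281, 273 and 225. Their log2 fold changes were -0.43 ± 0.36 and -0.25 ± 0.33. No overlap in this direction was thus seen for 3 of 41 members, against 45 of 734 transcripts (6.13%), and none of the members lay higher without overlap, against 30 of 734 (4.09%). With TMM or positive-count size factors 1 of the members lay apart, and no share over all transcripts was taken there.

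As a class, 29 of the 41 members had a log2 fold change below 0, against 386 of 734 transcripts (52.6%). Their median was -0.25, beside -0.04 over all 734 and -0.03 over the 74 box C/D snoRNAs with an adjusted p, of which 0 were called. That distance from all transcripts was not kept without single libraries. It was largest without wild-type library 1 (-0.38 for the members and -0.02 for all), shrank without heterozygous library 3 (-0.14 and -0.11), and turned without heterozygous library 2 (-0.29 and -0.31). Without wild-type library 3 the medians were -0.01 and 0.06. Scaling by the library total gave -0.58 for the members and -0.48 for all transcripts.

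Precision was set by the spread between libraries. Of the 35 members with a mean normalised count of at least 100, 26 had counts in all 6 libraries. Their log2 fold changes ran from -1.03 to 0.26 (median -0.27), with 23 of 26 below 0, and their SEs from 0.33 to 0.77. At the median SE of 0.47, the 95% interval reached 0.93 to either side on the log2 scale. This interval is not adjusted for the number of transcripts, so larger changes can be missed too. Snora81, at -1.03 ± 0.47, had a DESeq2 adjusted p of 0.601 and was not called. Within a genotype the coefficient of variation of these 26 members had a median of 24.3%, against 37.4% for all 411 transcripts of that level with no 0. Snora41 varied least (6.80%) and Snora78, from Snhg9, varied most (49.3%).

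**Figure D2:**
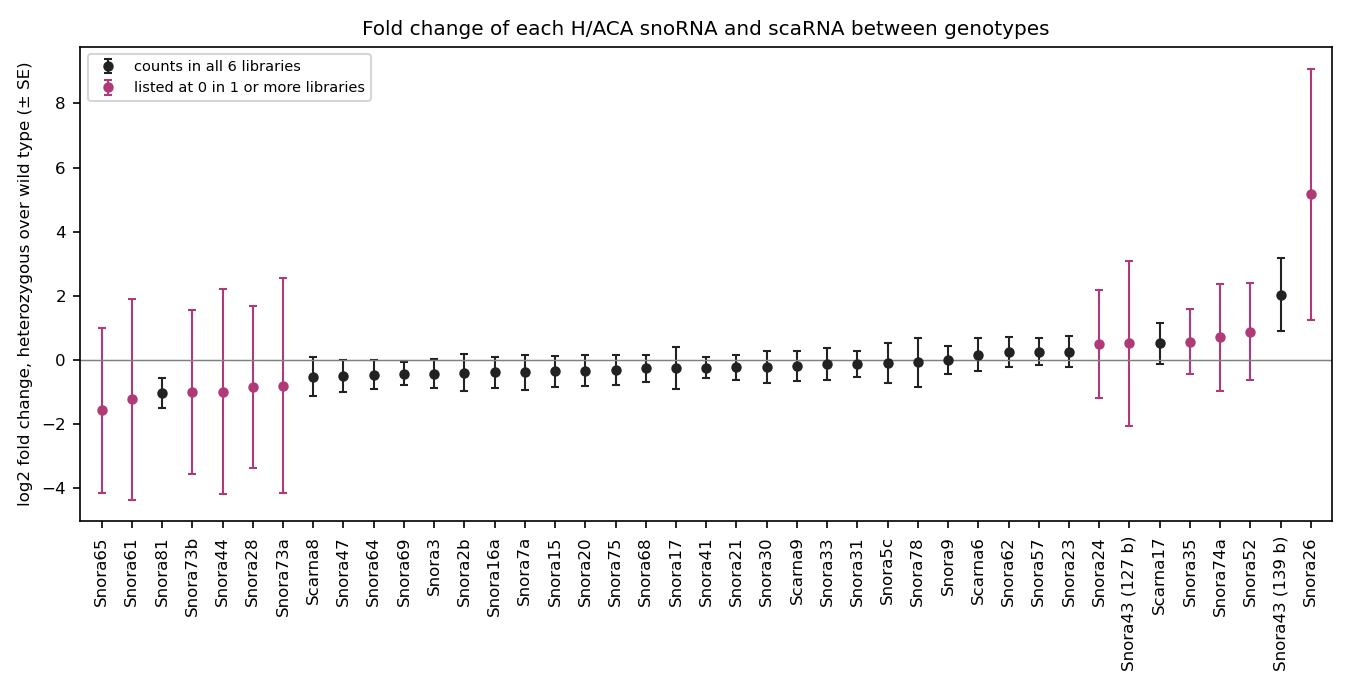
Log2 fold change of each transcript, heterozygous over wild type, with its SE (DESeq2), sorted by value. Members with counts in all 6 libraries (black) lie between -0.52 and 0.52 except Snora81 and the longer Snora43 transcript, and members listed at 0 in a library (magenta) have wide errors.

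Among the 9 remaining members of that level, each was listed at 0 in at least 1 library. These are rounded model estimates in which similar sequences compete for reads, so a 0 can be a failed estimate and is given as listed. Wild-type library 1 listed 6 of them at 0 and heterozygous libraries 1 and 2 listed 6 at 0, while wild-type libraries 2 and 3 and heterozygous library 3 listed none of the 35 at 0. Any 0 was found in 25.7% of the 35 members, in 43 of all 454 transcripts of that level (9.47%) and in 3 of 69 box C/D snoRNAs. The SEs of these 9 log2 fold changes were 1.51 to 3.36. Of these 9 members, 8 lay in an exon of a host transcript, against 12 of the 26 with counts in all 6 libraries. The authors' index held all RNAs, while only transcripts shorter than 300 bases are listed here. Sharing of reads with longer host transcripts was not tested.

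The 6 members that both heterozygous libraries 1 and 2 listed at 0 were Snora73a, Snora73b, Snora44, Snora61, Snora65 and Snora28. They are printed here because their values decide what the comparison shows, with capitals as above.
Snora73a (chr4:132352775-132352979, minus strand, in Snhg3): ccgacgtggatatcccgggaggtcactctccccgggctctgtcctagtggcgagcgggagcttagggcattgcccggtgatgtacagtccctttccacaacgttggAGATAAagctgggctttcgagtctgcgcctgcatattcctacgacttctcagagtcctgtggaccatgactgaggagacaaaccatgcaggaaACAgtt
Snora73b (chr4:132352322-132352526, minus strand, in Snhg3): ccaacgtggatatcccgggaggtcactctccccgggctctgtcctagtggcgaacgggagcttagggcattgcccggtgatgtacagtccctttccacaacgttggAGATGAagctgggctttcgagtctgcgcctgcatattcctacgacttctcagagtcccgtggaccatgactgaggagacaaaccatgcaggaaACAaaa
Snora44 (chr4:132309941-132310069, plus strand, in Snhg12): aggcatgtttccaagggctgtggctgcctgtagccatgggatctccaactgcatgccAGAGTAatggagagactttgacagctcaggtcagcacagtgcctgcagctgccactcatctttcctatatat
Snora61 (chr4:132310240-132310369, plus strand, in Snhg12): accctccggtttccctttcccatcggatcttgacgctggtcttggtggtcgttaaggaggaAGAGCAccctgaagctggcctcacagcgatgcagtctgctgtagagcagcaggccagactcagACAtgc
Snora65 (chr2:32963291-32963420, plus strand, in Rpl12): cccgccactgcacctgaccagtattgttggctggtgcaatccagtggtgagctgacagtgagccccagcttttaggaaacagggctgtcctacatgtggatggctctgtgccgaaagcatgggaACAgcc
Snora28 (chr12:111540941-111541067, plus strand, in Eif5): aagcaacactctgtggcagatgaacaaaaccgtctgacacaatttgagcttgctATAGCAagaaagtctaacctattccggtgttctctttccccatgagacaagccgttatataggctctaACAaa

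Snora73a and Snora73b, also named U17, act in cleavage of the pre-rRNA on the way to 18S rRNA, and both lie in Snhg3. Snora73a had 0, 113 and 1123 counts in the wild-type libraries and 0, 0 and 320 in the heterozygous ones. Snora73b had 79, 439 and 517 against 0, 0 and 282. Their sequences are 98.0% identical over 202 aligned bases, so counts can pass from one to the other, and the sum of both was 79, 552 and 1640 against 0, 0 and 602. Gm26448, a transcript in Rpsa with 88.2% and 89.1% identity to them, had normalised counts of 365, 423 and 513 against 427, 460 and 449 and was thus present at a like level in all 6 libraries.

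Snhg12 hosts 3 of the members. Snora44 had 0, 500 and 316 counts against 0, 0 and 190, and Snora61 had 0, 350 and 285 against 0, 0 and 125. Snora16a from the same host had 427, 2738 and 3115 against 2866, 3855 and 884. The libraries that listed Snora44 and Snora61 at 0 therefore held 427 to 3855 counts of Snora16a, and 145 to 5060 of the box C/D snoRNA Snord99 of that host.

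Snora65, in the ribosomal protein gene Rpl12, had 155, 614 and 776 counts against 0, 0 and 298. Snora28, in Eif5, had 13, 185 and 315 against 0, 0 and 138. Among the annotated transcripts shorter than 300 bases, near-identical copies of Snora65 (98.5% identity) held at most 7 counts in a library. The pattern of 0 in heterozygous libraries 1 and 2 with counts in wild-type libraries 2 and 3 and heterozygous library 3 was shared by 6 of 35 members (17.1%) and by 11 of all 454 transcripts (2.42%). It was found in 1 of 69 box C/D snoRNAs, 2 of 112 snoRNAs with other symbols, 2 of 16 snRNAs and 0 of 118 nuclear tRNAs. Libraries 1 and 2 had the largest totals, so 3 counts would have been 3.38e-05% and 3.07e-05% of their counts.

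**Figure D3:**
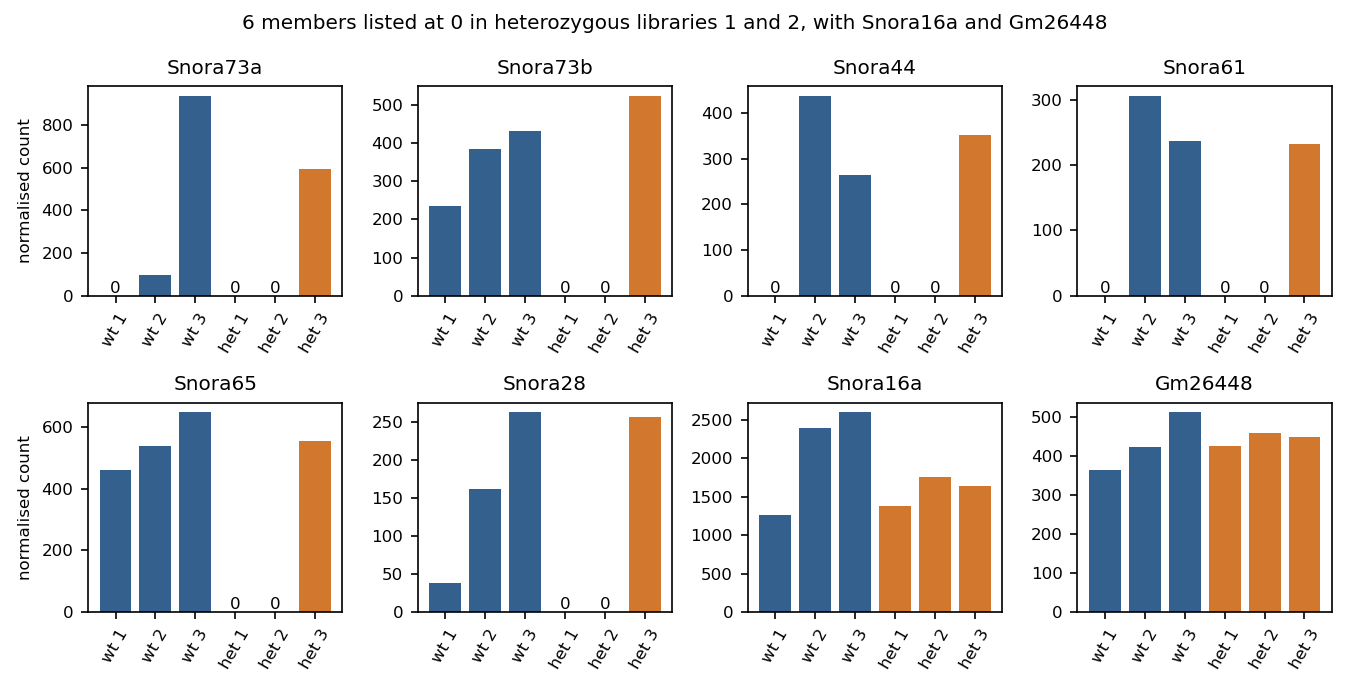
Normalised count in each library (bars, linear axis from 0; wild type blue, Polr3b heterozygous orange) of the 6 members listed at 0 in heterozygous libraries 1 and 2, and of Snora16a and Gm26448. Heterozygous library 3 stands at or above the wild-type mean for all 6, while Snora16a and Gm26448 have counts in every library.

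The calls among these RNAs depended on heterozygous library 3. For the 6 members its normalised count was 1.01 (Snora65) to 1.72 (Snora73a) times the wild-type mean. If the 0 values are taken as true counts, a limit of 3 counts in each of heterozygous libraries 1 and 2 puts them at least 110-fold (Snora28) to 390-fold (Snora65) lower than the wild-type mean. No such bound holds where a 0 is a failed estimate. Without library 3, DESeq2 called 6 members at an adjusted p under 0.1, against 68 of 881 transcripts (7.72%). They were Snora65 (adjusted p = 2.76e-13), Snora73b (2.06e-11), Snora28 (3.19e-07), Snora73a (0.0892) and Snora81 (0.0537), all lower, and the longer Snora43 transcript (0.0392), which was higher. Without libraries 1 and 2 instead, 0 members were called, against 13 of 1208 transcripts (1.08%). That fit leaves 1 heterozygous library, which is assumed to vary like the wild-type ones, so its count of calls cannot be set against the other. In it the log2 fold changes of the 6 members lay between 0.01 and 0.78. The part of the larger totals of libraries 1 and 2 in these 0 values was not tested.

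A separate group of 0 values fell in wild-type library 1, the smallest library. Snora24 (host Snhg8) had 0, 1309 and 991 counts against 1946, 2248 and 447. Snora52 (host Rplp2) had 0, 353 and 303 against 613, 952 and 162. Snora74a, also named U19, had 0, 312 and 975 against 1410, 1783 and 149. All 3 were present in each heterozygous library, and their log2 fold changes of 0.50 ± 1.68, 0.87 ± 1.51 and 0.70 ± 1.67 were smaller than their errors. Snora44, Snora61 and Snora73a were listed at 0 there as well.

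The scaRNAs did not differ between genotypes beyond their spread. Scarna8, an H/ACA scaRNA in Haus6, had normalised counts of 332, 530.9 and 807 against 451, 481 and 232 (log2 fold change -0.52 ± 0.62). Scarna9, in Cep295, had 142, 226 and 245 against 203, 190 and 143 (-0.20 ± 0.46). Scarna17 had 56.4, 66.5 and 38.4 against 40.3, 112 and 78.01 (0.52 ± 0.65), and Scarna6, in Atg16l1, had 26.7, 33.2 and 46.7 against 44.1, 34.2 and 44.6 (0.17 ± 0.52). Both genotypes overlapped for each, with 2 below and 2 above 0. Together the 4 made up 0.0109, 0.0240 and 0.0367% of the wild-type counts and 0.0173, 0.0183 and 0.00871% of the heterozygous counts.

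Members of low level gave little to compare. Snora43 was represented by a pair of transcripts of 139 and 127 bases, the shorter lying within the longer. Their summed counts were 4, 16 and 19 in the wild-type libraries and 158, 113 and 8 in the heterozygous ones, so heterozygous libraries 1 and 2 were high and library 3 was not. The longer transcript had a log2 fold change of 2.03 ± 1.14. Snora35, whose host Htr2c encodes a serotonin receptor of neurons, had 0, 7 and 7 counts against 12, 19 and 3. Snora26, in Dancr, had 14 counts in heterozygous library 3 and was listed at 0 in the other 5 libraries. Gm24233 and Gm22786, with 90.8% and 88.2% identity to it, held 97 to 1065 and 12 to 411 counts per library. Whether counts of Snora26 passed to them was not tested.

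The set of members took a small part of each library, with snoRNAs of other symbols not counted. Its share of all counts was 0.417% (95% Wilson interval 0.407 to 0.426%), 0.772% (0.764 to 0.781%) and 1.14% (1.13 to 1.15%) in the wild-type libraries. It was 0.541% (0.536 to 0.546%), 0.543% (0.539 to 0.548%) and 0.370% (0.364 to 0.377%) in the heterozygous libraries. The intervals cover counting error only and are far narrower than the spread between libraries, and the means of 0.777 ± 0.362% and 0.485 ± 0.0992% (SD, n = 3 each) overlapped in their libraries. In bulk tissue, fewer cells rich in these RNAs and less RNA per cell cannot be told apart.

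Within a library, the members' counts were compared with box C/D counts, which removes the library total. They amounted to 24.8, 29.9 and 34.0% of the box C/D counts in the wild-type libraries and to 27.0, 24.6 and 29.4% in the heterozygous ones. The log2 ratio differed by -0.12 between the genotype means, and the libraries overlapped.

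The 5 most abundant members were chosen on these libraries, so their share is a description. They held 43.6, 38.0 and 37.9% of the member counts in the wild-type libraries and 35.2, 37.5 and 34.7% in the heterozygous ones, without overlap. Snora81 is among them. Counted per kilobase, the 5 highest members held 38.3, 36.1 and 37.9% against 38.4, 40.0 and 32.1%, and the genotypes overlapped. The number of members with any count was 32, 39 and 40 against 33, 34 and 41, which followed the 0 values described above.

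**Figure D4:**
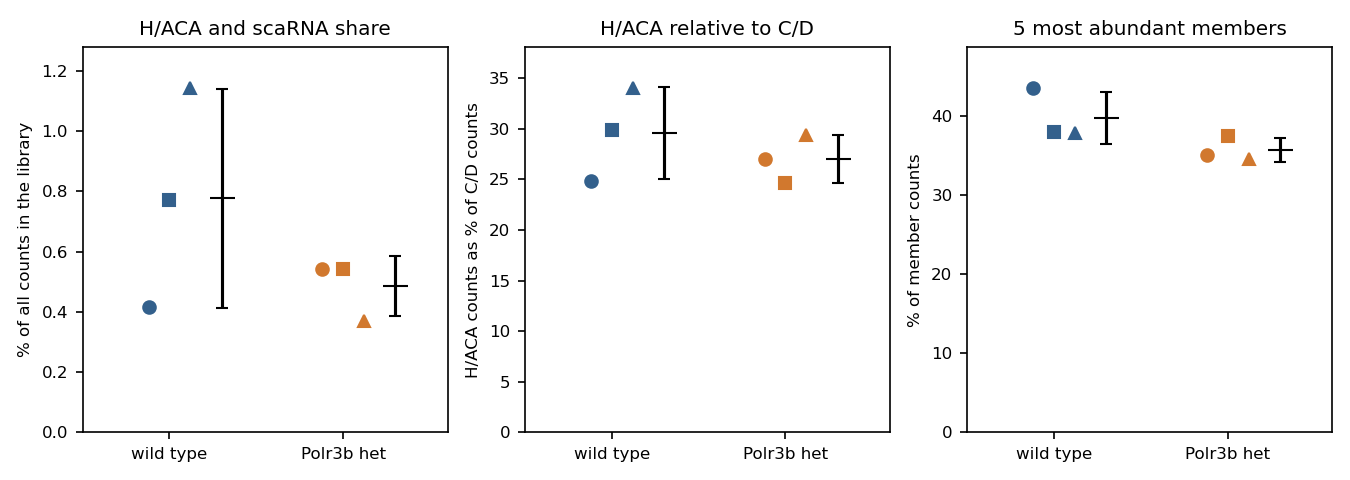
Share of the members' counts in all counts (left), their size relative to box C/D counts (middle) and the part held by the 5 most abundant members (right), in percent from 0, for each library (points) with mean ± SD (black). The genotypes overlap in the first 2 panels, and in the right panel the wild-type libraries lie at 37.9 to 43.6% and the heterozygous ones at 34.7 to 37.5%.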

How the data were processed

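Short RNA of female mouse duodenum was analysed in 6 libraries. The authors extracted RNA with Trizol, selected it by size, demethylated it, sequenced it in pairs, trimmed reads with Cutadapt, estimated transcript levels with Salmon on a decoy-aware GRCm39 index and imported them with tximport. The deposited values are expected counts (estimated counts per transcript, rounded to whole numbers), neither scaled nor pooled. A model divides reads among similar sequences, so a listed 0 can be a failed estimate. There were 0 unused columns of samples.

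Identifiers were matched without version to GENCODE vM21 (GRCm38), another build than the authors', and 0 of the 41 members had the same version. Sequences and lengths come from that annotation. Each host named (introns and exons not told apart unless stated) is the shortest same-strand gene spanning the transcript, small RNA genes aside. Genes with Gm or Rik symbols were named only where no other gene spanned it. Overlap with an exon was read from any of the spanning genes. Copies were found with BLAST 2.17.0+ (at least 95% identity for near-identical).

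The main test was the DESeq2 1.42.0 Wald test on genotype, fitted to the whole table with median-of-ratios size factors and an adjusted p under 0.1 (Benjamini-Hochberg), after the study's methods, in R 4.3.3. edgeR 4.0.16 (quasi-likelihood) was the alternative, beside other size factors, filters and libraries left out. The tests were tried on simulated counts with 8-fold changes in 200 transcripts. DESeq2 recovered 81% and edgeR 76.5% of them at the dispersion estimated here, and both 100% at a dispersion of 0.1. Smaller changes and failed estimates were not simulated, so this says nothing about them. Intervals of shares are Wilson intervals (95%, scipy 1.17.1), and these and the limit of 3 counts cover counting error only. The p-values measure the spread between these libraries. The members and lists were chosen with earlier results of these data known. Named were members called or at an unadjusted p under 0.05, the 10 highest in normalised count (1 of them is not reported here), Snora73a, Snora73b, Snora74a, Snora35, all scaRNAs and families that share a number. The other transcripts, such as those listed at 0, Snora26, Snora41, Snora69, Snora78, the shorter Snora43 transcript and those of shared hosts, were chosen after their values were seen.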

Additional observations from a re-analysis of the deposited data

How the results depend on the processing

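No paired analysis was made because the sample labels pair no mice across genotypes. The labels give the heterozygous mice no replicate number, and the digit that ends each heterozygous column name is not tied to a mouse. Each setting was fixed beforehand except leaving out heterozygous libraries 1 and 2 together, which was chosen after the data were seen. The count of called members was 0 under every alternative except without heterozygous library 3, and 0 to 6 over the libraries left out. Calls over all transcripts (17) were 7 with at least 10 counts in 3 libraries, 0 with edgeR and 7 to 68 over the libraries left out (55 without wild-type library 1, 7 and 68 without heterozygous libraries 2 and 3). The members' median was -0.58 by library total, and -0.38 to -0.01 over the libraries left out. Members whose genotypes did not overlap (3) numbered 1 with TMM, 1 with positive-count size factors and 3 to 12 over the libraries left out. They numbered 12 without wild-type library 1, and 8 and 9 without heterozygous libraries 1 and 3. With fewer libraries a gap between genotypes is easier to reach for any transcript. No share over all transcripts stands beside these counts, so they say nothing particular about the members. As log2 ratios of heterozygous to wild type, the members' share lay between -0.98 and -0.25, the scaRNA share between -1.08 and -0.21, the H/ACA to C/D ratio between -0.24 and -0.02 and the share of the 5 most abundant between -0.19 and -0.09 over the libraries left out. That last share was -0.030 per length against -0.15. The cause of these changes was not tested.

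Of 526 log2 fold changes of single members under alternatives, 482 kept their direction. With positive-count factors, Snora31 was at 0.021, Snora78 at 0.038, Snora5c at 0.032 and Snora9 at 0.048, and with TMM Snora9 was at 0.0062. With the library total, Snora62 was at -0.073, Snora57 at -0.11, Snora23 at -0.011, Scarna6 at -0.21 and the shorter Snora43 transcript at -0.23. Without heterozygous libraries 1 and 2, Snora62 was at -0.20, Snora65 at 0.0059, Snora74a at -0.39, Snora23 at -0.25, Snora9 at 0.41, Snora44 at 0.59, Snora73a at 0.78, Snora73b at 0.57, Snora61 at 0.35, Snora28 at 0.72 and the longer Snora43 transcript at -1.50. Over the libraries left out, directions turned for Snora17 (-0.54 to 0.048), Snora24 (-0.068 to 1.18), Snora30 (-0.48 to 0.011), Snora31 (-0.27 to 0.047), Snora33 (-0.47 to 0.072), Snora5c (-0.55 to 0.13), Snora62 (-0.045 to 0.42), Snora73a (-11.97 to 2.02), Snora78 (-0.47 to 0.26), Snora9 (-0.28 to 0.14) and the shorter Snora43 transcript (-0.75 to 4.10). Values near -12 rest on groups listed at 0 and are no measure of size.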
